A study of Mus musculus with 45 samples.

Results

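Sequencing of bisulfite PCR amplicons (BSP-seq) was compared between the colonic epithelium of 5 obese mice and 5 control mice. These 10 samples were chosen by assay and diet from the 45 samples of a study of diet-induced obesity in mice, and none was chosen by its measured values. All were male C57BL/6 mice, placed on their diets at 6 weeks of age. Control mice ate a diet with 10% fat for 20 weeks (LF1 to LF5), and obese mice ate a diet with 60% fat for 20 weeks (HF1 to HF5). Formerly obese mice, which ate the 60% fat diet for 15 weeks and then the 10% fat diet for 5 weeks, are given beside some results and were not compared. No allele, Cre or drug was involved, so diet was the only difference that the labels name between the groups. The assay covered 233 CpGs, which fell into 23 runs of CpGs called amplicons here, each run holding CpGs at most 500 bp from the next. The study describes its CpG sites as chosen at random. These CpGs lie in runs, however, and the main text of the study does not state how the amplicons were picked. They are therefore not taken here as a random sample of the genome, and whether genes of interest guided the choice is unknown.

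In a CpG, a cytosine is followed by a guanine, and DNA methyltransferases can add a methyl group to that cytosine on both strands. Most CpGs of a mammalian genome carry this mark, while CpG-dense promoters usually lack it, and intermediate levels are common at distal regulatory elements and in tissues where cells differ from one another. Bisulfite converts cytosine that carries no methyl group, and the level of a CpG is the percentage of reads that still show a cytosine there, over the DNA of all cells of the sample. In such bulk DNA, a change within cells and a change in the mix of cells cannot be told apart.

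The 5 stretches carry the results described first, and they are shown 5′ to 3′ on the plus strand of GRCm38.p6 (the RefSeq copy of mm10), with each measured CpG in capitals. The first 4 CpGs of the amplicon upstream of Pcdh8 (chr14:79822671-79822746, shown with 10 flanking bases on each side) hold the CpG that was called, the last pair of capitals. The Igfbp7 stretch (chr5:77434535-77434671) holds the third CpG in the order of p-values. The Lhx9 stretch (chr1:138838374-138838673) holds 19 of the 20 CpGs of the amplicon with the largest difference. The Lgr5 stretch (chr10:115459683-115459861) holds 1 CpG at which the groups did not overlap, and the stretch inside Pcdh8 (chr14:79769369-79769608) is the most CpG-dense.
Pcdh8 site 2: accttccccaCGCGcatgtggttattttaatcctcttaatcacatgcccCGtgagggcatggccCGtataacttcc
Igfbp7: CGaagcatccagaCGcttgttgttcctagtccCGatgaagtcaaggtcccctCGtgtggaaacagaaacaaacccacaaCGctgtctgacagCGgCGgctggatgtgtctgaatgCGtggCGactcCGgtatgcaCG
Lhx9: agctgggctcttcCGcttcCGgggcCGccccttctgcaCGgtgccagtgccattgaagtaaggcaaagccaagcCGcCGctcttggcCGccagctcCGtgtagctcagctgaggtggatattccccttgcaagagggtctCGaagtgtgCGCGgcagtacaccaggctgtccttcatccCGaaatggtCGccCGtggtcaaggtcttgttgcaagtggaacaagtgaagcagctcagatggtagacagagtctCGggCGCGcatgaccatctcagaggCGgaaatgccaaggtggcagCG
Lgr5: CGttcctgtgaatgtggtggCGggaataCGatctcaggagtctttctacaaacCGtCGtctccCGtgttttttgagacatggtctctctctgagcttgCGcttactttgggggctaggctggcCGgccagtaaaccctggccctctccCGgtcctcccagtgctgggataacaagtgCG
Pcdh8 site 1: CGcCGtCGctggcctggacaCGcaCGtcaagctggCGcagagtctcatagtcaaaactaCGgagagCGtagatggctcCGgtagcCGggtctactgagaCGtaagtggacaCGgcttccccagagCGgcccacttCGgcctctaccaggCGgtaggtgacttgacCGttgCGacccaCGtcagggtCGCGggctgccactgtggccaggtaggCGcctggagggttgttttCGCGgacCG

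The amplicons spanned 102 to 541 bp and held 4 to 24 CpGs each. Every CG of the reference between the first and the last CpG of an amplicon was listed. Of the 23 amplicons, 14 lay inside the protein-coding gene that names them and 9 lay outside protein-coding genes, where the gene with the nearest start gave the name. Coding exons held 82 of the CpGs, introns 63, untranslated regions 12, other exon sequence 4, and sequence outside protein-coding genes 72. Distances from a gene's start are taken from the centre of the amplicon. Only 2 amplicons, at C1qb and Epha6, lay within 500 bp of the start of their gene, and 17 lay over 20 kb from it, so few of the values bear on promoters.

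Methylation was high at most of these CpGs. Over the 15 mice, 105 CpGs had a mean level of at least 80%, 91 lay between 20% and 80%, and 37 were under 20%. At the level of amplicons, 7 had a mean over 90%, 5 lay between 80% and 90%, 6 between 50% and 80%, 3 between 20% and 50%, and 2 under 20%. The 5 amplicons under 50% were those of Epha6, Lhx9, Vgf, Pcdh8 site 1 and Polr1d. Their ratio of observed to expected CpGs in the 1000 bp around them ran from 0.27 to 0.85, and in the other 18 amplicons from 0.09 to 0.52. Across the 23 amplicons, level and this ratio had a Spearman correlation of -0.534, given as a description since these points share the same mice.

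**Figure D1:**
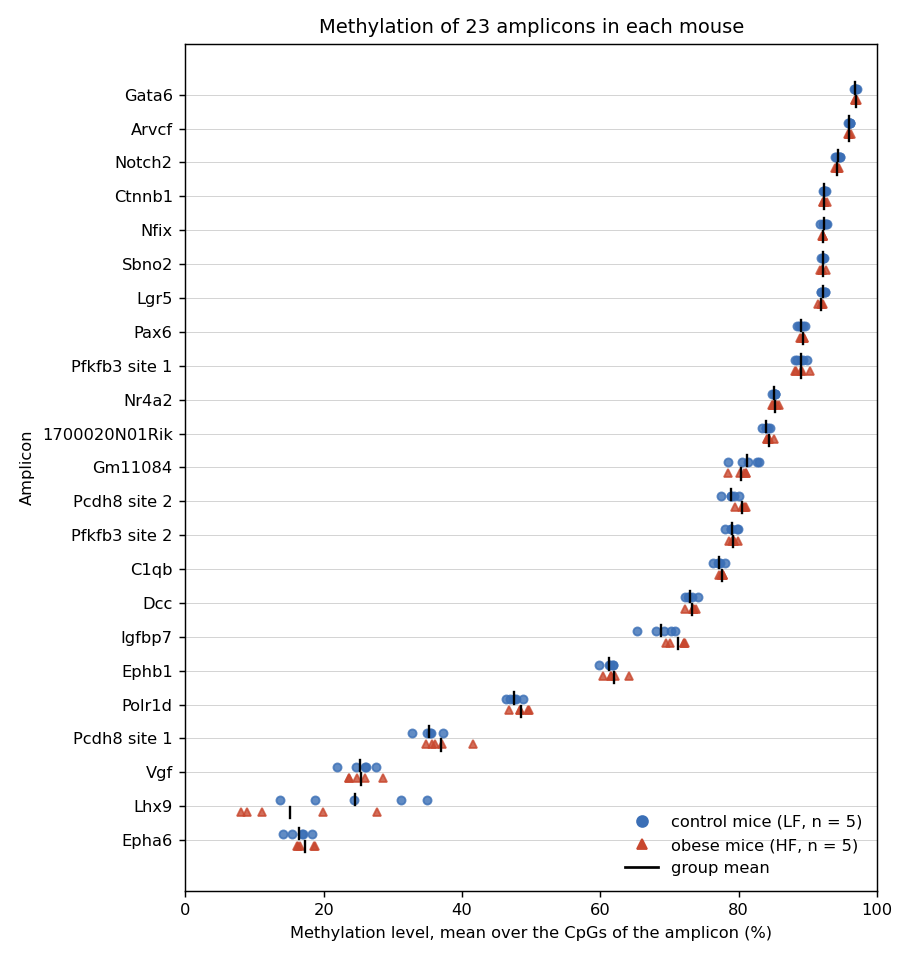
Methylation level of each amplicon (x axis, mean over its CpGs in percent) in each of 5 control mice (circles) and 5 obese mice (triangles), ordered by level on the y axis, with black ticks at the group means. Control and obese mice lie on top of each other for most amplicons, while Lhx9 spreads from 8.1% to 34.9%.

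Methylation over all amplicons was about equal in both diets. The mean of the 23 amplicon levels was 72.69% ± 0.6 (SD, n = 5) in control mice and 72.67% ± 0.342 (SD, n = 5) in obese mice, and 72.88% ± 0.332 (SD, n = 5) in formerly obese mice. The difference between obese and control mice was -0.0237 points (SE 0.309, two-sided exact permutation p = 0.897). Control mice ran from 71.89% to 73.42% and obese mice from 72.21% to 72.95%, so the obese values lay within the control range. The sign turned when a single mouse was left out, to 0.0429 points without LF1, 0.0255 without LF4, 0.16 without LF5, 0.0909 without HF3 and 0.0452 without HF4. Of the 23 amplicons, 16 had a higher mean in obese mice and 7 a lower one. Of the 233 CpGs, 135 were higher and 98 lower, the median difference was 0.138 points, and 131 CpGs differed by less than 1 point.

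Both the size and the sign of this mean depended on Lhx9. Without Lhx9, a choice made after its values were seen, the remaining 22 amplicons had a mean of 74.88% ± 0.283 (SD, n = 5) in control mice and 75.28% ± 0.264 (SD, n = 5) in obese mice. That difference was 0.404 points with the opposite sign (SE 0.173, exact permutation p = 0.0635). All 20 CpGs that differed by more than 5 points were those of Lhx9. Outside Lhx9, 17 CpGs differed by more than 3 points, of which 6 were in Epha6, 5 in Pcdh8 site 1, 4 in Igfbp7, 1 in Vgf and 1 in Pcdh8 site 2.

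A single CpG was called, at chr14:79822735 upstream of Pcdh8. Calls needed a Benjamini-Hochberg adjusted p under 0.05 over all 233 CpGs in limma, and 0.429% of the CpGs tested met this. No amplicon was called among 23 (0%). Without adjustment, limma gave p under 0.05 at 24 CpGs, 14 higher and 10 lower in obese mice, and at 2 amplicons, Pcdh8 site 2 and Igfbp7. The exact permutation test gave p under 0.05 at 21 CpGs and at 1 amplicon. The 24 CpGs were spread over 11 amplicons, with 6 in Pcdh8 site 2, 5 in Lhx9, 3 in Igfbp7, 2 each in Nfix and 1700020N01Rik, and 1 each in the others.

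At 4 CpGs the values of the 5 obese mice did not overlap those of the 5 control mice, which was 1.72% of the CpGs tested. Obese mice were higher at 3 of them, 2 in Pcdh8 site 2 and 1 in Igfbp7, and lower at 1, in Lgr5. For each, the two-sided exact permutation p was 0.00794, the smallest that 5 against 5 mice can give. Leaving out a mouse can only keep or raise this count. It was 9 without LF2, 11 without LF3, 7 without LF5, 8 without HF1 and 8 without HF5. No amplicon mean separated the groups.

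Pcdh8 encodes protocadherin 8, a cell adhesion protein of the cadherin superfamily that is best known from neural tissue and early embryos. Its upstream amplicon, Pcdh8 site 2 (chr14:79822681-79823221, 15 CpGs), overlapped no annotated gene and lay 51639 bp upstream of the start of Pcdh8. It had the smallest p of all amplicons, and methylation was higher in obese mice by 1.61 points (95% confidence interval 0.538 to 2.68, limma adjusted p = 0.134, exact permutation p = 0.0159). The amplicon level was 79.0% in LF1, 78.9% in LF2, 77.4% in LF3, 79.3% in LF4 and 80.1% in LF5. In obese mice it was 79.5% in HF1, 80.5% in HF2, 81.05% in HF3, 80.8% in HF4 and 80.9% in HF5. Obese mice other than HF1 were above each control mouse, while HF1 fell below LF5, so the groups overlapped. Without LF5 the difference was 1.91 points and the adjusted p of limma 0.0435, which was the one fit without a mouse that called an amplicon, while without LF3 it was 1.22 points with an adjusted p of 0.415. The mean in formerly obese mice was 80.35% ± 0.866 (SD, n = 5).

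All 15 CpGs of Pcdh8 site 2 had a higher mean in obese mice, by 0.42 to 3.29 points. The CpGs of an amplicon are read in the same mice and DNA, so such counts, here and below, are not separate observations. The CpG that was called, at chr14:79822735, had levels of 83.4%, 81.6%, 83.0%, 83.5% and 83.65% in LF1 to LF5. In HF1 to HF5 they were 85.2%, 86.1%, 86.01%, 84.98% and 85.6%. Each obese mouse was thus above each control mouse, and the lowest obese and the highest control value were 84.98% and 83.65%. The difference was 2.56 points (95% confidence interval 1.57 to 3.55, limma adjusted p = 0.0172). The adjusted p rose to 0.053 without LF3, to 0.0682 without HF2, to 0.0685 without HF3 and to 0.0588 without HF5, so the call needed each of these 4 mice, while the difference stayed between 2.2 and 2.72 points whichever mouse was left out. Formerly obese mice were at 85.5%, 85.4%, 85.6%, 85.8% and 84.2%, each above the highest control mouse, which was not tested.

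The neighbouring CpG at chr14:79822720 had the second smallest p. Its levels were 71.7%, 71.3%, 70.8%, 72.05% and 71.9% in LF1 to LF5, and 74.0%, 73.6%, 75.4%, 75.5% and 75.7% in HF1 to HF5. The groups did not overlap, the difference was 3.29 points (95% confidence interval 1.58 to 5), and the adjusted p of 0.0947 in limma missed the threshold. Fitting only the 10 mice compared gave an adjusted p of 0.0474, and leaving out 1 mouse gave 0.0682 to 0.301.

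The 15 CpGs were not evenly spaced. The first 4 lay within 56 bases, chr14:79822681-79822736, and were listed once in the table, while the other 11 were each listed in 2 identical entries, counted once here. When amplicons were split at gaps over 100 bp, giving 29 blocks, the block of the first 4 CpGs was the only block called. It was at 79.8%, 79.8%, 79.9%, 80.7% and 80.99% in LF1 to LF5. It was at 81.9%, 82.4%, 83.2%, 82.8% and 82.45% in HF1 to HF5, so each obese mouse was above each control mouse. The difference was 2.33 points (SE 0.33, limma adjusted p = 0.0034 over the 29 blocks). The next block of 10 CpGs (chr14:79822897-79823110) differed by 1.33 points (SE 0.679, adjusted p = 0.306), and whether the blocks differed from each other was not tested.

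**Figure D2:**
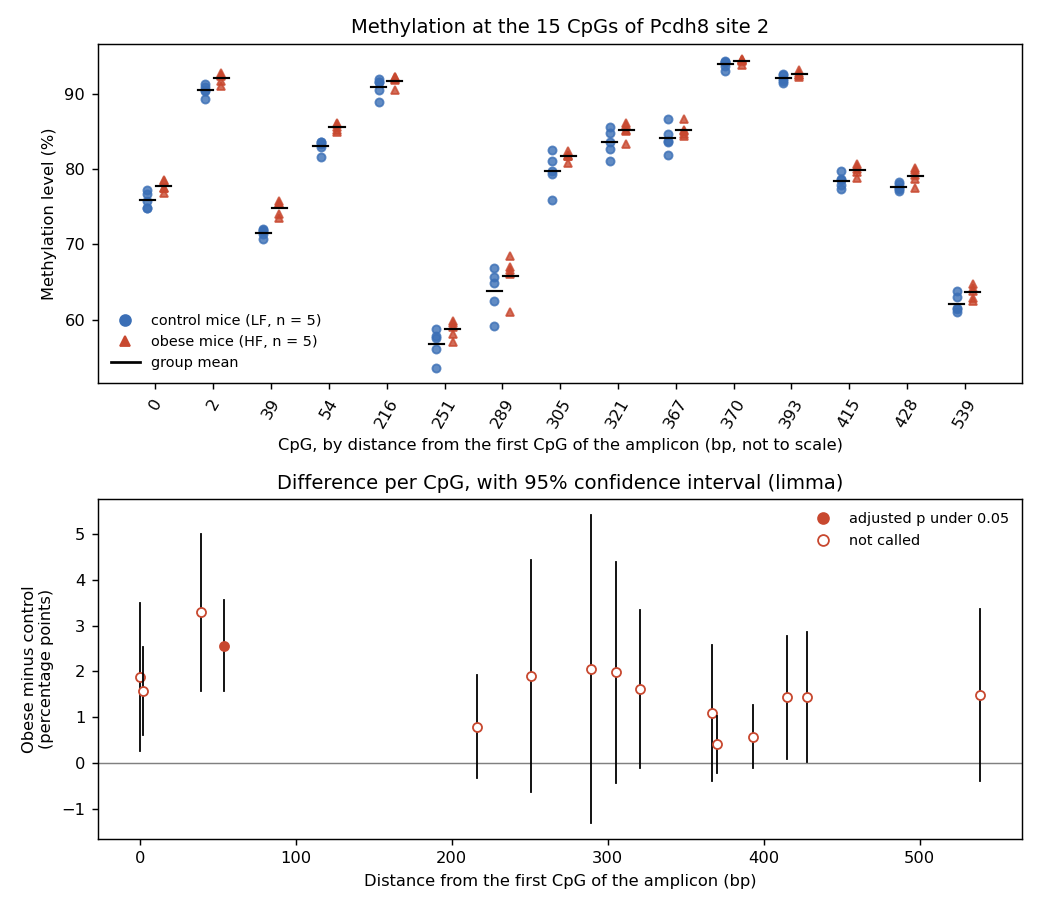
Upper panel, methylation level in percent (y axis) at each of the 15 CpGs of Pcdh8 site 2 in control mice (circles) and obese mice (triangles), with lines at the group means and CpGs in order along the x axis. Lower panel, obese minus control difference in percentage points with its 95% confidence interval against distance from the first CpG in bp, where the filled point is the CpG that was called, 2.56 points higher in obese mice.

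Igfbp7 encodes a secreted protein that binds insulin-like growth factors and is abundant in vessels and stroma. Its amplicon (chr5:77434535-77434671, 11 CpGs) lay 26562 bp upstream of the gene's start and had the second smallest p. It also lay inside Gm34728, a long noncoding RNA gene on the opposite strand, 569 bp from the start of that gene. The level was 68.1%, 70.3%, 65.3%, 70.9% and 69.2% in LF1 to LF5, and 72.1%, 72.1%, 72.3%, 70.1% and 69.5% in HF1 to HF5. HF1, HF2 and HF3 were above each control mouse, while HF4 and HF5 fell among the control values. The difference was 2.5 points (95% confidence interval 0.0957 to 4.91, limma adjusted p = 0.431, exact permutation p = 0.0556), and it was 1.65 points without LF3 and up to 3.04 points when another mouse was left out. Formerly obese mice had a mean of 69.82%.

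All 11 CpGs of Igfbp7 had a higher mean in obese mice, by 0.94 to 4.59 points. At chr5:77434670, the last CpG printed above, levels were 60.9%, 65.9%, 59.4%, 64.5% and 63.65% in LF1 to LF5, and 68.2%, 66.9%, 68.5%, 66.7% and 65.5% in HF1 to HF5. Only HF5 was below a control mouse, LF2. The difference was 4.27 points (95% confidence interval 1.86 to 6.67, limma adjusted p = 0.107), and it missed the threshold in 9 of the 10 fits that left out 1 mouse. Across these fits the difference ran from 3.39 points without LF3 (adjusted p = 0.134) to 5.03 points without LF2 (adjusted p = 0.0273, the one fit that called it), with a highest adjusted p of 0.378 without HF3. At chr5:77434548, the second CpG, control mice ran from 48.17% to 56.44% and obese mice from 56.51% to 60.55%. These groups did not overlap, although the gap between HF1 and LF4 was small, and the adjusted p of limma was 0.406.

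**Figure D3:**
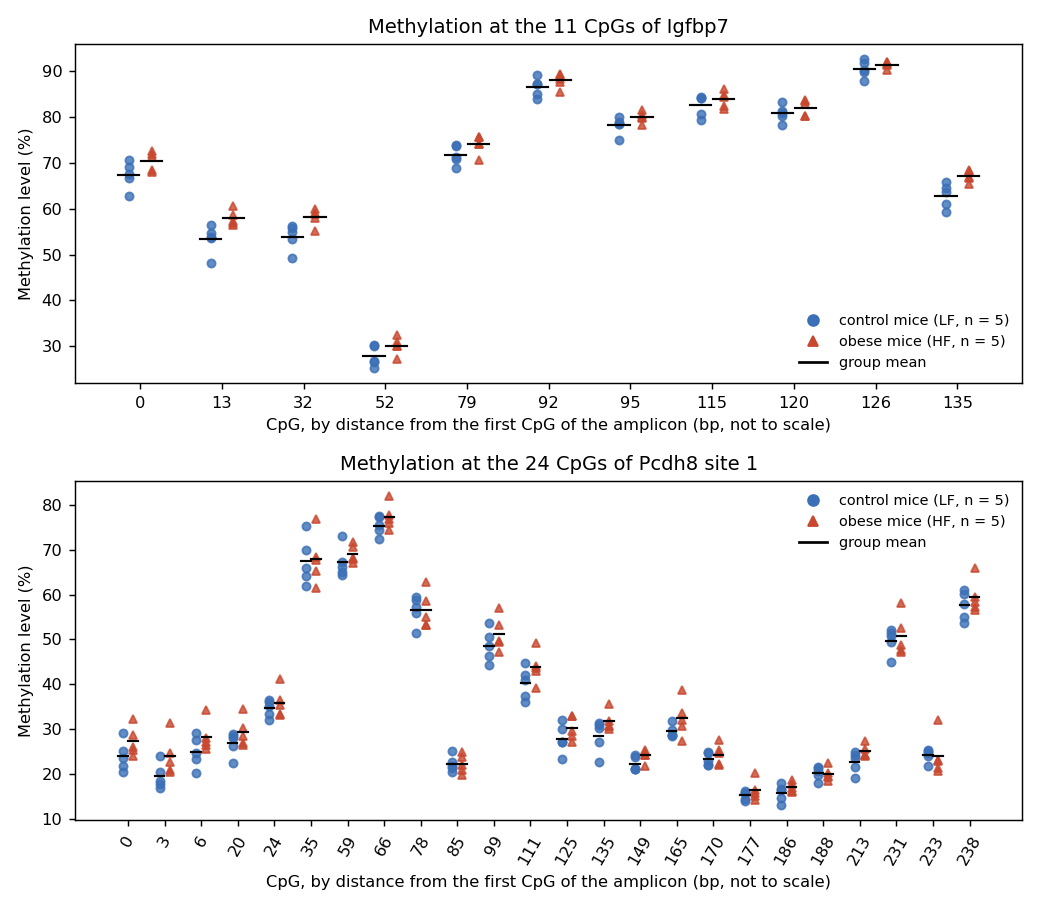
Methylation level in percent (y axis) at the 11 CpGs of Igfbp7 (upper panel) and the 24 CpGs of Pcdh8 site 1 (lower panel) in 5 control mice (circles) and 5 obese mice (triangles), with lines at the group means and CpGs in order along the x axis. At Igfbp7 each obese mean is above the control mean by 0.94 to 4.59 points, and at Pcdh8 site 1 the groups overlap at every CpG.

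Lhx9 encodes a LIM homeobox transcription factor that acts in the development of gonads, limbs and brain. Its amplicon (chr1:138838358-138838673, 20 CpGs) lay in coding sequence, 10062 bp from the start of the gene, and showed both the largest difference and the largest spread between mice. The level was 24.3% in LF1, 13.7% in LF2, 18.7% in LF3, 31.2% in LF4 and 34.9% in LF5. In obese mice it was 20.0% in HF1, 11.1% in HF2, 8.1% in HF3, 8.87% in HF4 and 27.65% in HF5. HF2, HF3 and HF4 were below each control mouse, whereas HF1 and HF5 lay inside the control range. The mean was lower in obese mice by 9.43 points (95% confidence interval for obese minus control -19.6 to 0.703), which missed the threshold (limma adjusted p = 0.431, exact permutation p = 0.119).

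The SD between mice at Lhx9 was 8.68 points in control mice and 8.44 points in obese mice. In the other 22 amplicons it ran from 0.126 to 2.19 points in control mice, with a median of 0.685, and from 0.0887 to 2.72 points in obese mice, with a median of 0.454. The mice kept much the same order at every CpG of Lhx9. LF5 was the highest control mouse at 19 of the 20 CpGs and LF4 at the other, LF2 was the lowest at 19, HF5 was the highest obese mouse at 20, and either HF3 or HF4 was the lowest obese mouse at 20. Formerly obese mice ranged from 11.4% to 28.1%, with HFLF1 the highest at 17 CpGs. All 20 CpGs had a lower mean in obese mice, by 5.62 to 12.3 points, but since the mice kept their order, these CpGs do not amount to 20 separate observations. Lhx9 RNA was close to absent, with 2 counts in all 15 RNA libraries.

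**Figure D4:**
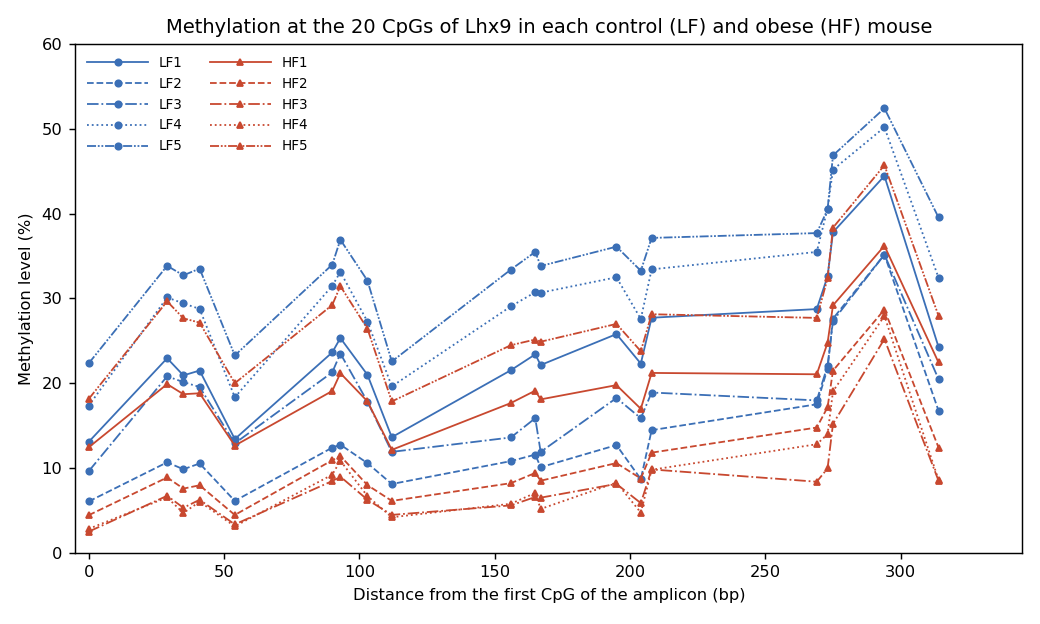
Methylation level in percent (y axis) at the 20 CpGs of Lhx9 against distance from the first CpG in bp (x axis), with 1 line for each control mouse (LF, circles) and each obese mouse (HF, triangles). The lines run nearly in parallel, LF4 and LF5 on top and HF2, HF3 and HF4 at the bottom, with HF5 among the control mice.

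Lgr5 and Pcdh8 site 1 complete the 5 with the smallest p. Lgr5 encodes a receptor for R-spondins that marks stem cells at the base of the intestinal crypt, and its amplicon (chr10:115459683-115460056, 14 CpGs) lay in an intron. It was 127911 bp from the start of Lgr5, and the nearest start of a protein-coding gene was that of Zfc3h1. The amplicon level was 92.57%, 91.94%, 92.32%, 91.93% and 92.44% in LF1 to LF5, and 91.98%, 92.05%, 91.52%, 92.24% and 92.06% in HF1 to HF5. The groups overlapped, and the difference of -0.267 points had a 95% confidence interval of -0.617 to 0.0833 (limma adjusted p = 0.521), and it was -0.154 points without HF3. At 1 of its CpGs, chr10:115459746, all 5 obese mice were lower, at 72.0% to 73.7% against 74.0% to 75.0% in control mice, with a difference of -1.42 points and a limma adjusted p of 0.412.

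Pcdh8 site 1 (chr14:79769369-79769608, 24 CpGs) lay in coding sequence, 1824 bp from the start of Pcdh8. It was at 35.55%, 37.2%, 35.4%, 34.9% and 32.75% in LF1 to LF5, and at 36.05%, 41.7%, 37.0%, 35.6% and 34.75% in HF1 to HF5. HF2 stood above each other mouse, and the remaining obese mice lay within the control range. The mean was 1.86 points higher in obese mice (95% confidence interval -0.688 to 4.41, limma adjusted p = 0.521), and 22 of the 24 CpGs had a higher mean. Without HF2 the difference was 0.701 points. Neither site had a count for Pcdh8 RNA beside it, since the gene had 0 counts in all 15 RNA libraries.

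**Figure D5:**
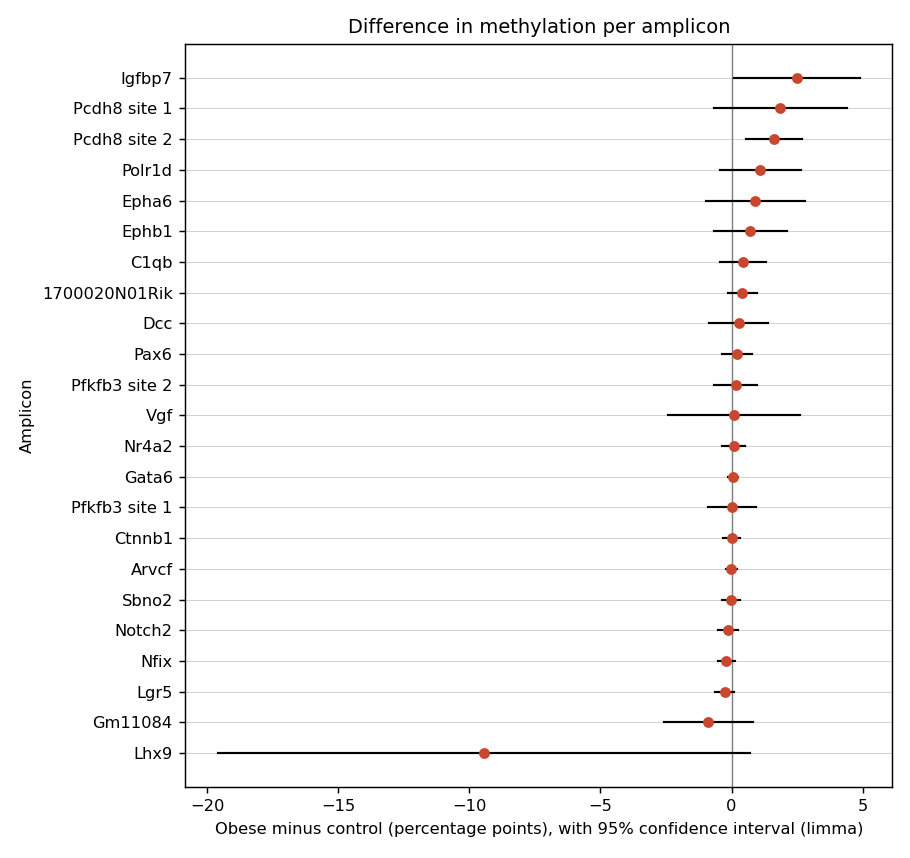
Obese minus control difference in methylation (x axis, percentage points) of each of the 23 amplicons (y axis), with 95% confidence intervals from limma. The intervals of Pcdh8 site 2 (0.538 to 2.68) and Igfbp7 (0.0957 to 4.91) lie above 0 before adjustment, and the interval of Lhx9 is the widest, from -19.6 to 0.703.

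The other 18 amplicons differed by -0.889 to 1.09 points, their smallest adjusted p was 0.521, and their 95% confidence intervals all lay within -2.58 and 2.79 points. These intervals, and not the p-values alone, describe how large a difference in each amplicon mean could be. They are not adjusted for the number of amplicons. Single CpGs differed by more, with differences down to -4.15 points in Vgf and up to 4.62 points in Epha6.

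Among these 18, 3 amplicons had a mean under 50%. Epha6, an ephrin receptor gene, was covered in exon sequence (chr16:60605091-60605272, 21 CpGs, 350 bp from the start), at 16.36% ± 1.6 (SD, n = 5) in control mice and 17.25% ± 1.24 (SD, n = 5) in obese mice. Its first CpG was erratic, with control levels of 0%, 11.8%, 42.1%, 8.33% and 0%, and the 3 values at 0 in the whole table were all there. Vgf, which encodes a precursor of neuroendocrine peptides (chr5:137030763-137031013, 12 CpGs), was at 25.23% ± 2.1 in control mice and 25.32% ± 2.05 in obese mice. Polr1d, a subunit gene shared by RNA polymerases I and III (chr5:147128604-147128798, 8 CpGs outside the gene), was at 47.47% ± 0.898 and 48.57% ± 1.14, the largest difference of the 18 at 1.09 points (95% confidence interval -0.453 to 2.64).

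The 6 amplicons of the 18 with a mean over 90% lay inside protein-coding genes, apart from Gata6, and none differed by more than 0.206 points. They were Notch2 (chr3:98034893-98035068), a receptor gene of the Notch pathway, with 94.37% ± 0.334 in control and 94.24% ± 0.211 in obese mice, and Ctnnb1 (chr9:120957766-120957945), the gene of β-catenin in Wnt signalling, with 92.4% ± 0.158 and 92.41% ± 0.212. Nfix, a transcription factor gene (chr8:84729886-84730012), was at 92.39% ± 0.369 in control and 92.19% ± 0.0887 in obese mice. Sbno2 (chr10:80068779-80068987) was at 92.19% ± 0.178 and 92.17% ± 0.318, and Arvcf (chr16:18402836-18402937), a gene of the p120 catenin family, at 96.01% ± 0.138 and 95.99% ± 0.151. Gata6 (chr18:10989325-10989430), a transcription factor gene of the endoderm, had 4 CpGs 62687 bp upstream of its start, at 96.89% ± 0.126 and 96.94% ± 0.127. With Lgr5, the 7 amplicons over 90% had 95% confidence intervals between -0.617 and 0.331 points.

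The remaining 9 amplicons lay between 61.55% and 89.29% over all mice. Pfkfb3, the gene of an enzyme that sets the level of an activator of glycolysis, had an amplicon near its 3′ end (chr2:11474389-11474688), at 88.96% ± 0.73 in control and 88.98% ± 0.885 in obese mice. Its intronic amplicon (chr2:11528974-11529179) was at 79.1% ± 0.761 and 79.26% ± 0.49. Both amplicons of Pfkfb3 thus differed by less than the SD between mice in either group. The sites far from the gene that names them were Nr4a2 (chr2:56858371-56858495), an orphan nuclear receptor gene, with a difference of 0.08 points, Gm11084 (chr2:73047573-73047731) with -0.889, Pax6 (chr2:105581465-105581613), a homeobox gene, with 0.204, and 1700020N01Rik (chr10:21559765-21559882) with 0.401.

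C1qb, a complement gene of macrophages, was covered 169 bp upstream of its start (chr4:136886298-136886415), at 77.16% ± 0.645 in control and 77.59% ± 0.283 in obese mice. Ephb1, another ephrin receptor gene (chr9:102348621-102348786), was at 61.23% ± 0.853 and 61.96% ± 1.38, with all 10 CpGs higher in obese mice by up to 1.24 points. Dcc, a netrin receptor gene (chr18:72115080-72115390), was at 73.02% ± 0.725 and 73.29% ± 0.619. No amplicon of these 9 had a p under 0.05, and each had an interval that includes 0.

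Genes at the amplicons were then read in the RNA sequencing of the same groups, whose 10 control and obese libraries held 15230391 to 16749096 gene counts. The 23 amplicons belonged to 21 genes, 20 of which had an entry in the count table and 11 of which were expressed enough to be tested. Calls used the fold cutoff of 1.2 with p under 0.01 and adjusted p under 0.25 in edgeR, which 1.58% of the 12961 genes tested met. Of the 11 genes, 1 was called, Pfkfb3, higher in obese mice. Its RNA was at 2.87, 2.42, 2.48, 1.54 and 1.74 CPM (gene counts scaled to a library of 1e+06) in LF1 to LF5, and at 5.85, 2.93, 3.72, 4.05 and 3.36 CPM in HF1 to HF5. Each obese mouse was above each control mouse, with HF1 the highest, and raw counts were low, at 25 to 46 in control and 48 to 93 in obese libraries.

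The log2 fold change of Pfkfb3 was 0.85 (SE 0.23, edgeR adjusted p = 0.164). The call was lost without LF2, LF5, HF1, HF3, HF4 or HF5, with adjusted p values of 0.314, 0.272, 0.321, 0.345, 0.277 and 0.286, while the log2 fold change stayed between 0.67 and 0.96. In bulk RNA, more cells that express a gene and more RNA per cell cannot be told apart. Methylation at the 2 Pfkfb3 amplicons, given above, differed between diets by 0.024 points (95% confidence interval -0.902 to 0.95) and 0.157 points (-0.651 to 0.966).

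The other 10 tested genes had log2 fold changes of -0.09 to 0.19, with a smallest adjusted p of 0.461 in edgeR. Ctnnb1 was the most abundant, at 1240 CPM in control and 1280 CPM in obese mice, and Lgr5 was at 26.1 and 26.9 CPM. The 9 genes with an entry that were not tested were Lhx9, C1qb, Igfbp7, Vgf, Ephb1, 1700020N01Rik, Pcdh8, Epha6 and Dcc, none above a group mean of 0.426 CPM, and 3 of them (Pcdh8, Epha6 and Dcc) had 0 counts in every library. The genes at the amplicons with the 3 smallest p, Pcdh8, Igfbp7 and Lhx9, were thus all below the level at which RNA could be compared. Of 10 genes that write, read or remove the mark (Dnmt1, Dnmt3a, Dnmt3b, Dnmt3l, Uhrf1, Tet1, Tet2, Tet3, Tdg and Mbd4), 8 were tested and 0 were called, with log2 fold changes of -0.13 to 0.09 around a median of -0.01, and 0 had an unadjusted p under 0.05 in edgeR.

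The markers of the labelled tissue were present. The summed level of 10 epithelial genes was 18900 to 26100 CPM in control mice and 20900 to 26000 CPM in obese mice. The 10 immune genes summed to 23.5 to 41.2 CPM in control and 31.3 to 61.4 CPM in obese mice, the 9 fibroblast and smooth muscle genes to 2.65 to 12.5 and 7.15 to 18.6 CPM, and the 3 endothelial genes to 4.74 to 6.2 and 2.77 to 5.64 CPM. The 4 genes of enteric neurons and glia summed to at most 1.77 CPM, with Sox10 at 0, and the 3 adipocyte genes to at most 0.0611 CPM, with Plin1 and Lep at 0. Of the 39 marker genes, 23 were tested and 0 were called. The groups overlapped in each of the lists, and whether the cell mix had a part in the methylation differences was not tested.

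For position, the CpGs were set against the list of 8199 differentially methylated regions (DMRs) that the authors called between obese and control mice from whole-genome bisulfite sequencing. Only 2 of the 233 CpGs lay in a listed region, both in Lhx9 (chr1:138838448-138838452), where the list gives a gain in obese mice. In BSP-seq the mean of these CpGs, at chr1:138838448 and chr1:138838451, was 24.5%, 12.6%, 22.4%, 32.3% and 35.45% in LF1 to LF5, and 20.1%, 11.2%, 8.72%, 10.0% and 30.3% in HF1 to HF5. Here the obese mean was lower by 9.36 points (SE 5.73, two-sided exact permutation p = 0.143), with HF2, HF3 and HF4 below each control mouse. The groups overlapped, so the opposite direction at this region is no measure of how well the assays match. For methylation levels at the BSP-seq sites, the study reports a strong correlation of this assay with whole-genome bisulfite sequencing. That correlation was not recomputed here. A region that the list gives as a loss lay 264 bp from the Epha6 amplicon (chr16:60604728-60604827) and held none of its CpGs. The CpG called at chr14:79822735 lay in no listed region. The authors' cutoffs for a region asked for a far larger absolute difference in methylation than its 2.56 points, or else for a large fold change. Group means of 83.03% in control and 85.59% in obese mice at this CpG meet neither. Absence from the list is therefore no comparison of the 2 assays at such sites.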

How the data were processed

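DNA of the colonic epithelium, isolated with EDTA, was converted with bisulfite and amplified by PCR. The authors deposited the methylation level of each CpG and mouse as a fraction of reads (mm10), multiplied by 100 here. Per the labels, the tools include Bismark (0.7.8 and 0.14.0). The table holds no read depth, so the counting error of a single value is unknown. Of 253 entries, 20 repeated another exactly and were counted once.

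Arcsine square root values were fitted in limma 3.58.1 (R 4.3.3) with a mean-variance trend over all 15 BSP-seq mice, per CpG and per amplicon mean, with Benjamini-Hochberg adjustment. Confidence intervals come from the same fit in percent. Exact permutation tests were two-sided over 252 splits. The authors also deposited raw gene counts (TopHat2 2.0.4 and HTSeq), fitted with edgeR 4.0.16 (TMM, filterByExpr, quasi-likelihood test), with DESeq2 1.42.0 as an alternative, and a DMR list, of which only positions and directions were used. Tables of fold changes and p-values by the authors were not used. Scripts were tested on simulated data. Gene positions are from GENCODE M21. No 2 mice of a group shared more than 1.29% of their values.

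The comparison, the marker and enzyme lists and the tests were chosen with earlier results of these data known. Named were the 3 CpGs and the 5 amplicons with the smallest p, every called CpG, and each tested gene at an amplicon. CpGs whose groups did not overlap were named after their values were seen. Labels do not state that the samples numbered alike in DNA and RNA came from 1 mouse, so no value was matched between them. P-values weigh the group differences against the spread between these samples.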

Additional observations from a re-analysis of the deposited data

How the results depend on the processing

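The number of CpGs called (1) was the same under the percent and logit scales, without the trend, with robust variances and after a filter on levels from 5% to 95%. It was 2 with only the 10 mice compared, 0 with the exact permutation test, and 0 to 2 when 1 mouse was left out. The number of amplicons called (0) was 1 with a gap of 100 bp, 0 to 1 when 1 mouse was left out (1 without LF5, Pcdh8 site 2 with an adjusted p of 0.0435), and 0 under the other alternatives apart from the block. The differences of the 3 named CpGs and 5 named amplicons kept their sign under each alternative run.

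The mean over all amplicons changed sign without Lhx9 (0.404 points, an alternative chosen after seeing the data), and ran from -0.223 to 0.16 points when 1 mouse was left out. CpGs whose groups did not overlap numbered 4 to 11 when 1 mouse was left out, which cannot lower the count. In edgeR, RNA calls among the genes at the amplicons numbered 0 to 1 when 1 library was left out. They numbered 0 at an adjusted p under 0.05, and the calls over all genes then numbered 16 in place of 205. With DESeq2 and the main cutoffs, 1 of these genes was called, Pfkfb3 (log2 fold change 0.85, DESeq2 adjusted p = 0.0423), and 268 genes were called in all. CpGs within 1000 bp of a DMR numbered 41, all of them in the Lhx9 and Epha6 amplicons.

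Control and obese amplicon deviations with the same replicate number correlated from -0.819 to 0.905, and 1 of 5 control mice correlated best with its own number. Without Lhx9 the correlations of equal numbers ran from -0.159 to 0.409. These values do not settle whether equal replicate numbers mark mice that belong together. With a replicate block, 9 CpGs and 1 amplicon (Lhx9, adjusted p = 0.0453) were called, and the block left the mean over all amplicons at -0.0237 points. With 5 mice per group, the exact test is limited by the smallest p it can give, and its smallest adjusted p over the CpGs was 0.435.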
